A study of Mus musculus with 2 samples.

Results

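Mir101a and Mir101b, the mouse genes for microRNA miR-101, were followed in small RNA from adult heart. Both were found by their gene identifiers in the deposited tables, ENSMUSG00000065451.1 for Mir101a and ENSMUSG00000065556.1 for Mir101b, and they are 2 of the 2202 microRNA genes listed there. The study is a microRNA sequencing experiment with a labelled size range under 30, on heart tissue of female mice labelled 5xFAD/CAST and aged 8 to 10 months. 5xFAD is a transgenic mouse model of Alzheimer disease whose transgenes are driven by a neuronal promoter (Thy1), and CAST denotes an inbred line founded from wild-caught mice. There is 1 group of 2 libraries, numbered as biological replicates 2 and 1, with no treated, wild-type or other reference group. The labels give both of them 1 donor identifier. Their spread may thus be technical, and differences between them compare libraries and not conditions.

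MicroRNAs are cut from a hairpin precursor by Drosha and Dicer, and a short arm loaded into an Argonaute protein represses messenger RNAs that pair with its seed, the bases near its 5′ end. miR-101 is known as a repressor of Ezh2, the histone methyltransferase of the Polycomb complex, mostly from human cancer cells. In rat hearts after infarction, miR-101a and miR-101b were described as restraining fibroblast growth and collagen production through c-Fos, the source of the name antifibrotic. No measure of fibrosis was analysed here, so that name was not checked against these hearts.

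The annotated mature sequences, from RefSeq on build GRCm38.p6, show how close the pair is and where reads of Mir101a and Mir101b can be told apart. Each is printed 5′ to 3′ with its seed, bases 2 to 8, in capitals.
miR-101b-3p: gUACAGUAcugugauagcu
miR-101a-3p: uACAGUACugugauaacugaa
miR-101b-5p: uCGGUUAUcaugguaccgaugcu
miR-101a-5p: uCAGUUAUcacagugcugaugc
miR-101c: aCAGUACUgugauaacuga

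The 3p arms have the same core but start 1 base apart in the annotation, miR-101b-3p earlier, so that as annotated they share no seed of bases 2 to 8. Among the 1738 mature sequences of the table, no other had the seed of either 3p arm. Placed on the Mir101b precursor without gaps, miR-101a-3p differed at 1 base, A16G, with positions counted from 1 at the 5′ end of miR-101a-3p and the base of that arm given first. Placed in the same way, miR-101a-5p differed from the Mir101b precursor at 5 bases. The 5p arms thus differ at more bases than the 3p arms. The tables count reads per gene, so the share of each arm cannot be read from them.

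The precursors show the same pattern at full length, with the longest run of bases common to both in capitals.
Mir101b precursor: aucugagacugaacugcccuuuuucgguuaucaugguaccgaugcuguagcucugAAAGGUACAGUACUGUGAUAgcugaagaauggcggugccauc
Mir101a precursor: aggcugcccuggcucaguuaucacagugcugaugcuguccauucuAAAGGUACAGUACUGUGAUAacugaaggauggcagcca

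**Figure D1:**
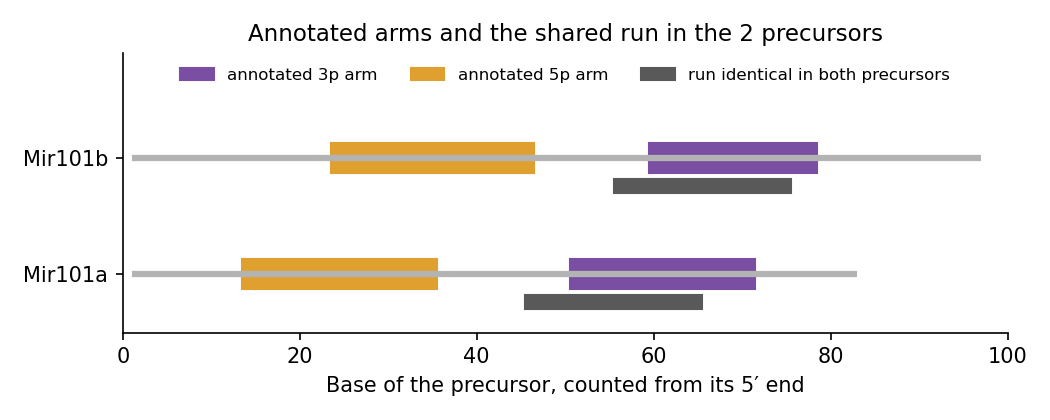
Map of the Mir101b and Mir101a precursors, with the base position from the 5′ end on the horizontal axis. Coloured boxes mark the annotated 5p and 3p arms and the dark bar below each line marks the run of 20 identical bases, which covers bases 56 to 75 of Mir101b and 46 to 65 of Mir101a and ends inside the 3p arm of each.

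The shared run was 20 bases long, at bases 56 to 75 of the 97-base Mir101b precursor and bases 46 to 65 of the 83-base Mir101a precursor. A shared run of at least 18 bases was common in the tables: 51.2% of all 2202 precursors and 25.3% of the 380 detected genes had one with another listed precursor. Mir101a also shares 19 bases with Mir101c, a further annotated gene, and these are the whole annotated miR-101c. Within miR-101a-3p only the first and the last base lie outside them, with the substitutions U1C and A21U in Mir101c. The longest run that Mir101b shares with Mir101c is 14 bases. Reads that fitted several loci were assigned to no gene and made up 43.2% of the reads of replicate 2 and 42.4% of those of replicate 1. Counts of Mir101a and Mir101b therefore hold only reads placed at a single locus, and how many miR-101 reads were left out was not measured.

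Mir101b lies on the plus strand of chromosome 19 (mm10), bases 29135279 to 29135375. It sits in intron 8 of Rcl1, a gene whose yeast counterpart acts in ribosomal RNA processing, on the strand of Rcl1 and 776 bases past the preceding exon. Mir101a lies on the minus strand of chromosome 4, bases 101346945 to 101347027, within exon 2 of a transcript of the long noncoding gene E130102H24Rik. Neither gene belongs to a microRNA cluster: the nearest listed microRNA gene is 1126 kb away from Mir101b and 1689 kb away from Mir101a. Mir101c lies on chromosome 9, bases 3038669 to 3038743, inside no annotated gene. No listed microRNA gene overlaps Mir101b or Mir101a on either strand, and in both libraries 0 reads of either gene lay on the opposite strand.

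Both genes were detected at moderate levels, Mir101b above Mir101a in each library. Levels are raw read counts on the strand of the gene, scaled to counts per 1000000 (CPM) of the 2877511 assigned reads of replicate 2 and the 4186560 of replicate 1. Mir101b had 267 counts in replicate 2 and 802 in replicate 1. These correspond to 92.8 CPM (exact 95% interval 82.0 to 105) in replicate 2 and 192 CPM (179 to 205) in replicate 1. Mir101a had 173 counts in replicate 2 and 333 in replicate 1. These correspond to 60.1 CPM (51.5 to 69.8) in replicate 2 and 79.5 CPM (71.2 to 88.6) in replicate 1. Both genes were lower in replicate 2, and the lower Mir101b value still lay above the higher Mir101a value. The mean level was 142 ± 69.8 CPM for Mir101b and 69.8 ± 13.7 CPM for Mir101a (SD, n = 2). Intervals are Clopper-Pearson. They cover counting error alone, as no molecular identifiers show which reads are copies of the same molecule.

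**Figure D2:**
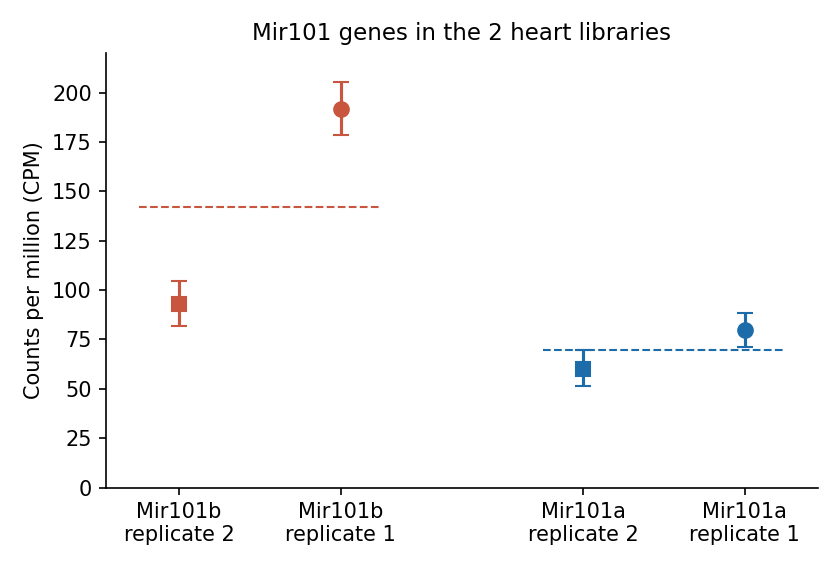
Level of Mir101b and Mir101a in CPM (vertical axis) in replicate 2 and replicate 1. Points are single libraries, bars are exact 95% counting intervals and dashed lines are the means of the 2 libraries, 142 CPM for Mir101b and 69.8 CPM for Mir101a.

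Mir101b ranked 119th and Mir101a 152nd by mean CPM among all listed genes, above 68.7% and 60.0% of the 380 genes detected at 1 CPM or more in both libraries. Per base of the annotated gene, Mir101b ranked 126th with 1.47 CPM per base and Mir101a 155th with 0.841 CPM per base. The length used is that of the whole precursor, although the annotated arms are much shorter, so these ranks are a description only. In replicate 2 the ranks by CPM were 135 for Mir101b and 158 for Mir101a, and in replicate 1 they were 109 for Mir101b and 144 for Mir101a. The pair together held 0.0153% of the counts in replicate 2 and 0.0271% in replicate 1. In the order of mean CPM, the pair of genes above and the pair below each member all had values that overlapped its own. For Mir101b these were Mir1843a and Mir339 above and Snord43 and Mir1306 below. For Mir101a they were Mir137 and Mir1a-2 above and Mir302b and Mir374b below. The rank of either gene is thus not resolved from its nearest neighbours with these libraries.

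**Figure D3:**
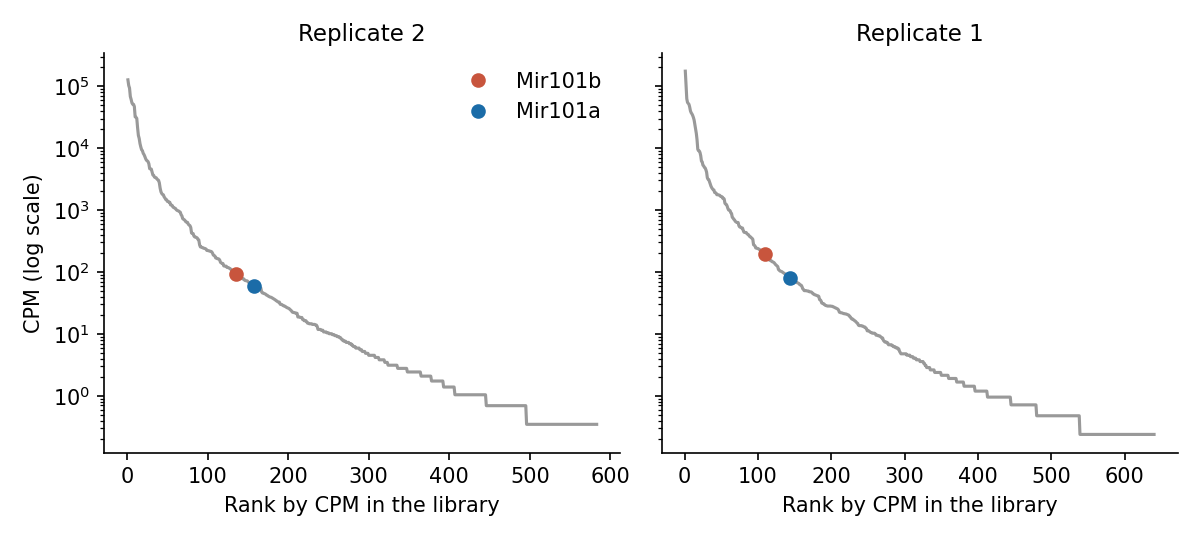
CPM on a log scale against rank for every gene with a count, in replicate 2 and in replicate 1. Mir101b (rank 135 in replicate 2, 109 in replicate 1) and Mir101a (rank 158 in replicate 2, 144 in replicate 1) sit on the slope between the few most abundant genes and the tail near the level of single reads.

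Mir101b supplied most single-locus reads of the pair, and its lead was smaller in replicate 2. Mir101a shares a run of 19 bases with Mir101c and Mir101b 1 of 14 bases. Reads left out for fitting several loci may thus differ between the genes, which was not measured. The ratio of Mir101b to Mir101a was 1.54 (exact 95% interval 1.27 to 1.88) in replicate 2 and 2.41 (2.12 to 2.74) in replicate 1, a mean of 1.98 ± 0.612 (SD, n = 2). Per base of the annotated genes the ratio was 1.32 in replicate 2 and 2.06 in replicate 1. This divides by the length of the whole precursor and does not correct for the length of the arms. As a share, Mir101b made up 60.7% (55.9 to 65.3) of the pair in replicate 2 and 70.7% (67.9 to 73.3) in replicate 1. Fisher's exact test, two-sided, on the 4 counts gave p = 0.000188, with an odds ratio of 0.641 (exact interval 0.506 to 0.813). This test needs no scaling of the libraries and covers counting error only. Mir101c had 0 counts in each library, which allows up to 1.04 CPM of reads unique to its locus in replicate 2 and 0.717 CPM in replicate 1. That limit does not extend to reads shared with Mir101a.

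Both genes were lower in replicate 2 than in replicate 1 beyond counting error, Mir101b by more. With TMM-scaled totals, the log2 ratio of replicate 2 over replicate 1 was -0.97 for Mir101b (exact 95% interval -1.18 to -0.77, adjusted p = 4.37e-23). For Mir101a it was -0.33 (-0.61 to -0.06, adjusted p = 0.0233). P-values are from two-sided exact binomial tests with Benjamini-Hochberg adjustment over the 309 genes kept by a filter on low counts. In this comparison 63.4% of the tested genes were called at an adjusted p under 0.05, 28.2% lower and 35.3% higher in replicate 2. Calls were thus the rule in the table, and 2 members are too few to set against these shares. A lower ratio than that of Mir101b was found at 12.9% of the tested genes, and a lower ratio than that of Mir101a at 30.1%. The median log2 ratio of the tested genes was 0.01, with quartiles of -0.50 and 0.53. Mir101a lay between the quartiles and Mir101b below the lower of them. In bulk tissue, fewer cells of a type and less RNA per cell cannot be told apart.

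**Figure D4:**
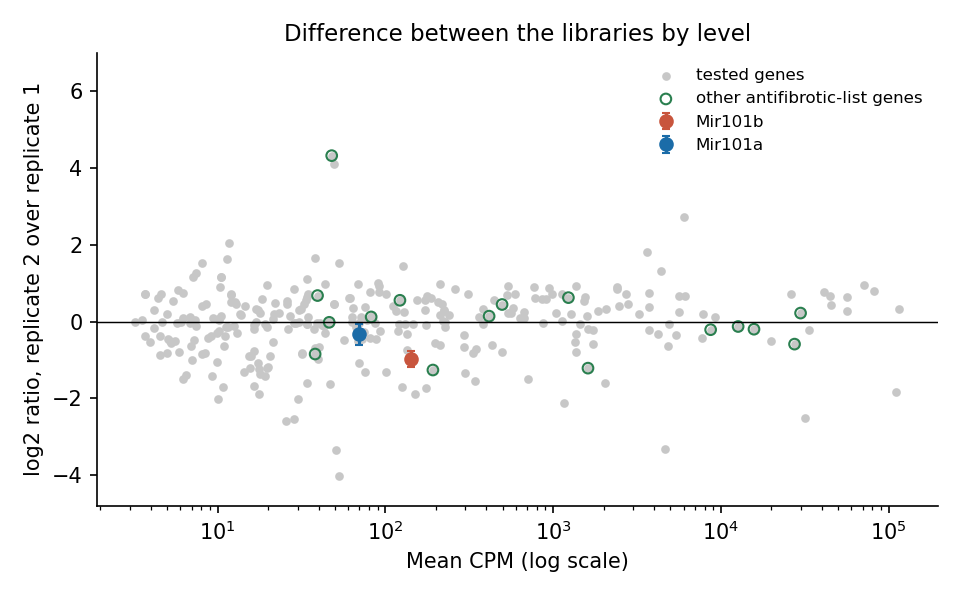
Log2 ratio of replicate 2 over replicate 1 (vertical axis) against mean CPM on a log scale for the 309 tested genes in grey. Green circles are the other tested genes of the antifibrotic list, and Mir101b (-0.97) and Mir101a (-0.33) are shown with exact 95% counting intervals, both below 0.

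Markers of the cell types in heart differed between the same libraries. Of all 309 tested genes, 28.2% were called lower and 35.3% higher in replicate 2. All 7 cardiomyocyte genes were detected and summed to 4789 CPM in replicate 2 and 6544 CPM in replicate 1, with 3 of the 4 tested (Mir499, Mir208a, Mir208b) lower in replicate 2. Endothelial Mir126a stood at 46780 CPM in replicate 2 and 174314 CPM in replicate 1, and the 2 erythroid genes summed to 230 CPM in replicate 2 and 755 CPM in replicate 1, all 3 genes lower in replicate 2. All 4 leukocyte genes were higher in replicate 2, summing to 7640 CPM there and 5369 CPM in replicate 1, and so were both smooth muscle genes, with 56334 CPM in replicate 2 and 32911 CPM in replicate 1. The 4 fibroblast genes summed to 3726 CPM in replicate 2 and 5295 CPM in replicate 1, with Mir21a higher and Mir214 lower in replicate 2. Fibroblast Mir199a-1 was at 0 in both libraries, as were the neuronal genes Mir124a-1, Mir124a-2 and Mir124a-3. Numbered copies, such as these and the Mir1a and Mir133a genes, hold only reads unique to their locus. A low count or 0 thus does not show that the microRNA was absent. The neuronal gene Mir137 stood at 43.8 CPM in replicate 2 and 96.5 CPM in replicate 1, and hepatocyte Mir122 at 57.3 CPM in replicate 2 and 19.1 CPM in replicate 1. The part of these differences in the values of Mir101b and Mir101a was not tested.

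Set among lettered pairs, genes with the same number and the letters a and b, the Mir101 pair had a shift above the median. Among the 15 such pairs with both genes at a mean of 10 CPM or more, the log2 ratio of b to a changed between the libraries by a median of 0.35 in either direction. For the Mir101 pair it was 0.63 in replicate 2 and 1.27 in replicate 1, a change of -0.64, and 4 pairs had a larger change. Its neighbours in the order of size were Mir378, with a change of -0.48, and Mir193, with -0.67. Mir193b and Mir193a also resembled the Mir101 pair in their ratio, which was 1.59 in replicate 2 and 2.52 in replicate 1. In 14 of the 15 pairs, Mir101 included, the same gene was the larger in both libraries, the exception being Mir15. These are descriptions, since the letters do not ensure equal arms or the same number of left-out reads. Counting intervals were not computed for the shifts of the other pairs, and some rest on low levels, such as Mir378b with a mean of 11.3 CPM. The place of the Mir101 pair in this order, and above the median, is thus not resolved from counting error.

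**Figure D5:**
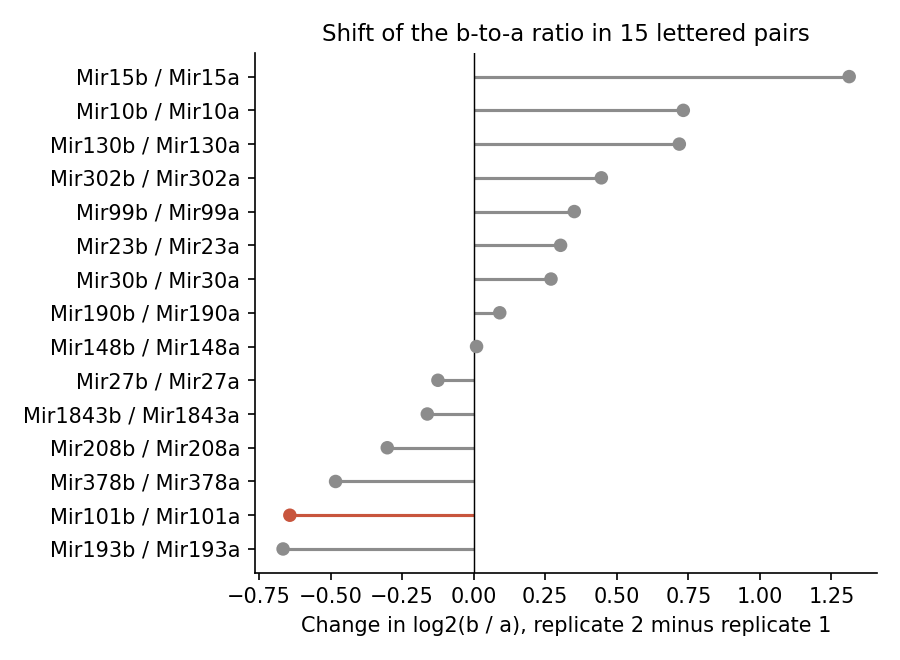
Change in the log2 ratio of the b gene to the a gene, replicate 2 minus replicate 1 (horizontal axis), for the 15 lettered pairs with both genes at 10 CPM or more. The Mir101 pair, in red, stands at -0.64, next to Mir193 at -0.67, while Mir15 has the largest change, 1.31.

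Among microRNA genes described as antifibrotic in heart, the Mir101 pair was in the middle of the range by reads placed at a single locus. The list of 23 genes also holds the mir-29 genes, which repress collagens, mir-30 and Mir133a genes, which repress connective tissue growth factor, and Mir24, Mir26, Mir18 and Mir19 genes. By mean CPM Mir101b stood 11th and Mir101a 14th in the list, with 10 genes above Mir101b and 9 below Mir101a. Its leading genes were Mir26b with 31445 CPM in replicate 2 and 28360 CPM in replicate 1, and Mir29a with 21331 CPM in replicate 2 and 33711 CPM in replicate 1. Next came Mir30d with 14296 CPM in replicate 2 and 17257 CPM in replicate 1, and Mir30a with 11806 CPM in replicate 2 and 13572 CPM in replicate 1. The list summed to 9.08% of the counts in replicate 2 and 10.7% in replicate 1. Of its 18 tested genes, 9 were lower in replicate 2, 7 were higher and 2 were not called, beside 28.2% lower and 35.3% higher over all tested genes. The median log2 ratio was -0.07 in the list and 0.01 over all tested genes. Mir29c, with a log2 ratio of -1.21, and Mir24-2, with -1.26, were lower still than Mir101b. At the other end stood Mir26a-1, with 262 counts in replicate 2, against 20 in replicate 1. The other 5 genes of the list were not tested, among them both Mir133a genes, which had between 3 and 8 counts per library. Numbered copies such as these hold only reads unique to their locus, so their counts and places in the list may miss reads of the microRNA.

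Of the 9 genes described as profibrotic, 6 stood above both Mir101 genes by mean CPM and 2 below both. Mir34a had 3681 CPM in replicate 2 and 6015 CPM in replicate 1, and Mir155 had 4122 CPM in replicate 2 and 3321 CPM in replicate 1. Mir21a had 2749 CPM in replicate 2 and 2199 CPM in replicate 1, and Mir208a 1074 CPM in replicate 2 and 1638 CPM in replicate 1. All 9 were tested, and 5 were lower in replicate 2, 2 were higher and 2 were not called, beside 28.2% lower and 35.3% higher over all tested genes. Their median log2 ratio was -0.54, and that of all tested genes 0.01. With 9 genes this is a description, and no difference from other genes was tested. Mir433, with 105 CPM in replicate 2 and 132 CPM in replicate 1, was closest to Mir101b in level. Among 11 genes described as repressors of Ezh2, Mir101b ranked 3 and Mir101a 5 by mean CPM, with Mir101b after Mir26b and Mir214. Mir214 had 976 CPM in replicate 2 and 3091 CPM in replicate 1. Of the 8 tested genes of that list, 3 were lower in replicate 2 (Mir101b, Mir101a and Mir214), 2 were higher (Mir26a-1 and Mir26b) and 3 were not called, a share of calls near the 63.4% over all tested genes. The Mir124a genes of the list had no count. Copies such as Mir26a-1 and Mir26a-2 hold only reads unique to their locus.

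A shorter seed match, bases 2 to 7, links the pair to other microRNAs in heart. These 2 sequences from RefSeq (GRCm38.p6) are shown, with bases 2 to 7 in capitals, because they share those bases with miR-101a-3p and with miR-101b-3p as annotated.
miR-144-3p, as miR-101a-3p: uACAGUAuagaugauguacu
miR-582-5p, as miR-101b-3p: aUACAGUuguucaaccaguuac

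Mir144, a gene of red blood cell precursors, had 178 counts (61.9 CPM) in replicate 2 and 1004 counts (240 CPM) in replicate 1, a log2 ratio of -1.88 (exact interval -2.12 to -1.65, adjusted p = 1.26e-74 in the exact binomial test). Its level in replicate 2 was near that of Mir101a, and in replicate 1 it exceeded both Mir101 genes. Mir582 had 31 counts (10.8 CPM) in replicate 2 and 101 counts (24.1 CPM) in replicate 1, a log2 ratio of -1.09 (-1.72 to -0.50, adjusted p = 0.000240 in the same test). Both were lower in replicate 2, as the Mir101 genes were and as 28.2% of all tested genes were called.

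By the distance over log2(CPM + 0.5) in the 2 libraries, the gene most like Mir101b was Mir339, at a distance of 0.0054 and with 268 counts in replicate 2, against 802 in replicate 1. Snord43, a symbol given to a gene of the microRNA tables, followed at 0.16 and Mir1306 at 0.46, and then Mir152 at 0.56 and Mir433 at 0.57. For Mir101a the nearest were Mir148b, at 0.10 and with 171 counts in replicate 2, against 356 in replicate 1, Mir374b at 0.13, Mir181a-1 at 0.15, Mir598 at 0.16 and Mir1a-2 at 0.21. With 2 libraries, this likeness is a matter of level and of a single difference. Mir101a and Mir101b were not among the nearest genes of each other.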

How the data were processed

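Each library has a deposited table of raw counts in 3 columns, whose values fit reads regardless of strand, on the strand of the gene (used here) and on the opposite strand. Build mm10 and annotation M21 are named in the deposited readme, and no aligner is named in the sources used here. All 2202 identifiers matched GENCODE M21. Rows for reads unmapped (17.5% of the 8930289 reads of replicate 2 and 19.0% of the 13233055 of replicate 1), at several loci (43.2% in replicate 2, 42.4% in replicate 1), outside genes (7.11% in replicate 2, 6.94% in replicate 1) or ambiguous (0% in both) stayed out of totals and tests. A count of 0 allows up to 3 counts, or 1.04 CPM in replicate 2 and 0.717 CPM in replicate 1. A chi-square statistic of 830 per degree of freedom over genes set the libraries apart, so they were not counted as duplicates.

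Totals were scaled by TMM in edgeR 4.0.16 (R 4.3.3), and filterByExpr with a minimum count of 10 kept 309 genes. Each was tested with an exact binomial test on its count given the scaled totals (scipy 1.17.1, Python 3.11.15, pandas 2.3.3, numpy 2.4.6), with Benjamini-Hochberg adjustment. A model of groups could not be fitted, as there is 1 group. The binomial step was tested on simulated data. Named genes were the members, the 4 most abundant genes of each fibrosis or Ezh2 list first, the 5 genes nearest to each member, genes sharing a seed or a run of 18 bases, hosts, nearest microRNA genes and adjacent pairs. Neighbours in level, Mir15, Mir29c, Mir24-2 and Mir26a-1 were added after their values were seen. The members and the lists were chosen with earlier results of these data known. Alternatives covered strand, replicate, denominator, scaling with DESeq2 1.42.0 size factors or plain totals, the filter, the pseudocount, the measure of likeness and the pair threshold.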

Additional observations from a re-analysis of the deposited data

How the results depend on the processing

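Of 37 recomputed values, 30 were labelled as kept and none reversed. Tests were kept if direction and side of the threshold stayed, and levels and the ratio if they stayed within the spread. Counts of genes and the median shift of the lettered pairs were kept if they stayed within a set fold range. Some of these 30 were fixed in advance. A level or ratio from 1 of the 2 libraries always lies within 1 SD of their mean. Both genes had equal counts regardless of strand and on their own strand, so their ratio and share could not change with that setting. In the 5 alternatives of strand, scaling and filter, the log2 ratio ranged from -1.05 to -0.97 for Mir101b and from -0.40 to -0.33 for Mir101a, with adjusted p from 1.27e-26 to 9.68e-23 for Mir101b and from 0.00502 to 0.0470 for Mir101a, and between 174 and 214 genes were called. With plain totals 98 genes were higher and 97 lower in replicate 2, against 109 and 87 as reported. Levels moved with the denominator by construction. With all reads in it, the means were 45.3 CPM for Mir101b and 22.3 CPM for Mir101a. Without the 10 most abundant genes they were 409 CPM for Mir101b and 204 CPM for Mir101a. With reads regardless of strand, whose total is smaller, Mir101b stood at 196 CPM and Mir101a at 94.8 CPM. Leaving out a replicate gave 92.8 to 192 CPM for Mir101b, 60.1 to 79.5 CPM for Mir101a and a ratio of 1.54 to 2.41. By mean level alone, 3 of the 5 nearest genes of each member stayed. At 100 CPM or more, 6 lettered pairs were left, without the Mir101 pair. No paired analysis was possible because there is 1 group, and no test between libraries can leave out either of them. Precision is limited by the 2 libraries, by reads at several loci and by the 440 counts of the pair in replicate 2.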
